A study of Mus musculus with 28 samples.

Results

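RNA recovered with PKR from untreated mouse embryonic fibroblasts was compared between cells that carry wild-type PKR and cells that carry a form of PKR altered in its RNA-binding domain. The 6 libraries used were the mock-treated libraries of the second of the series' datasets, called dataset B, and were taken by genotype, treatment and dataset from 28 samples in all. 3 libraries came from fibroblasts in which wild-type PKR had been put back (WT mock), and 3 from fibroblasts given a PKR that is mutated in every motif with which it binds double-stranded RNA (RM mock). Mock cells received no palmitate, and the matching treated groups of the series received 0.1 mM palmitic acid. Both genotypes are embryonic fibroblasts that express an added PKR, so that each line can differ from the other in more than the added protein, and the labels do not say how many lines or clones stand behind each genotype. PKR was immunoprecipitated from lysate, and the recovered RNA was fragmented and sequenced with a small RNA kit. Neither total RNA from the same lysates nor a control precipitation was used here, so the level of an RNA in the cells, its recovery with PKR and its carry-over on the beads cannot be told apart in any value below. The same holds for fewer cells of a kind and less RNA per cell.

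PKR, encoded by Eif2ak2, is a kinase that is held inactive until it binds double-stranded RNA through its paired binding motifs, after which it phosphorylates the translation factor eIF2 alpha. It is best known from the response to viruses, and it is also activated by saturated fatty acids. Small nucleolar RNAs (snoRNAs) are short structured nuclear RNAs. The H/ACA class guides pseudouridylation and the C/D class guides 2'-O-methylation of ribosomal and spliceosomal RNA, and a few, among them U3 and U8, are needed for the cleavage of ribosomal RNA precursors. Most mammalian snoRNAs are cut from the introns of other genes.

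The 6 libraries held between 3830243 and 7122087 counts over 30210 features, and protein-coding genes took between 60.9% and 66.5% of them. Between replicates of WT mock, replicate 1 stood apart. Its counts differed from those of the other two by 61.7 and 56.4 chi-square units per feature, while replicates 2 and 3 differed by 5.99 and the RM mock pairs by 5.36 to 21.7. No pair was as close as repeated counting of 1 library would be, which gives about 1. Of 12 fibroblast markers, all passed the filter on low counts. Their summed level, scaled by each library's total counts alone, was 18376 to 20285 CPM in WT mock and 22275 to 26923 in RM mock. The sums of the other markers in this paragraph are scaled in the same way. The CPM given for single features are TMM-scaled instead. Markers of macrophages and lymphocytes summed to 1.703 to 5.20 CPM, with 5 of 10 at 0 in all 6 libraries, and endothelial markers to 3.35 to 8.88. Muscle markers summed to 23.1 to 56.5 CPM, epithelial markers to 20.9 to 31.0 and neural markers to 18.4 to 26.6.

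Across 12466 features with enough counts to test, 1760 differed between WT mock and RM mock, which is 14.1% (edgeR's quasi-likelihood test, Benjamini-Hochberg adjusted p under 0.05). Of these, 778 (6.24%) were higher with WT and 982 (7.88%) were lower. Higher and lower always refer to WT mock relative to RM mock here. Levels are given in CPM, a fold change as its log2 with the standard error of the fit, and the adjusted p is the one from edgeR unless another is named. With the 3 libraries of each group, the groups did not overlap for 2275 features (18.2%) higher with WT and 2321 (18.6%) lower. The number called was 878 without WT mock replicate 2, 941 without RM mock replicate 2, 736 without RM mock replicate 3 and 978 with scaling by total counts (372 higher and 606 lower). Of the 982 lower features 680 were protein-coding genes, out of 10753 tested (6.32%). Features classed as snoRNA were lower in 168 of 350 and those classed as snRNA in 75 of 238, so these classes were lower more often than protein-coding genes. Of the 778 higher features 734 were protein-coding genes, 295 of them among the 2690 shortest.

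The following sequences belong to small RNAs that were lower with WT, and show the parts that define their class. They are GENCODE M21 transcripts on GRCm38, since no genome of the build used for the counts (mm9) was used here. In the 4 H/ACA snoRNAs the capitals mark the letters ACA placed exactly 3 bases before the 3' end. In the other 5 RNAs they mark the first TGATGA (box C) and the last CTGA after it (box D), which never overlap. Snora75 lies at chr1:86351169-86351301 on the minus strand, Snora34 at chr15:98519716-98519853 on the minus strand, Snora64 at chr17:24720772-24720905 on the plus strand and Snora23 at chr7:110046364-110046547 on the plus strand. Rnu3a, a gene for U3, lies at chr10:40258467-40258680 on the plus strand, Snord118, which encodes U8, at chr11:69073427-69073561 on the plus strand, Snord60 at chr17:24528476-24528553 on the plus strand and Snord33 at chr7:45126864-45126947 on the minus strand. Mir677 at chr10:128085289-128085360 on the plus strand is named as a microRNA and is classed as a snoRNA both in the files and by GENCODE.
Snora75: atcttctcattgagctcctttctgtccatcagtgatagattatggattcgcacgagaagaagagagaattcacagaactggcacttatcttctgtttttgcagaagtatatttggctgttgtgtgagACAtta
Snora34: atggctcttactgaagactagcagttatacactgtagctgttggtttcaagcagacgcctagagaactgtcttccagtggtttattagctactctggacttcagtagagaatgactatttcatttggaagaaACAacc
Snora64: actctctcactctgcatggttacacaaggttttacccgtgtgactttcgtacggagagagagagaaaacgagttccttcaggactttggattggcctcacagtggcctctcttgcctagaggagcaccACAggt
Snora23: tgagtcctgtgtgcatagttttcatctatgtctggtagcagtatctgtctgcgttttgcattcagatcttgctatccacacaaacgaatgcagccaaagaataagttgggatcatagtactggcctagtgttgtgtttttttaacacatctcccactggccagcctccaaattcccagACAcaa
Rnu3a: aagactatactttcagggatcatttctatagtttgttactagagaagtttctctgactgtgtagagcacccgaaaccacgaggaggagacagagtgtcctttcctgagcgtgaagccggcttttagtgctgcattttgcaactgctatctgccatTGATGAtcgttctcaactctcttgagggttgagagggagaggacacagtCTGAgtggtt
Snord118: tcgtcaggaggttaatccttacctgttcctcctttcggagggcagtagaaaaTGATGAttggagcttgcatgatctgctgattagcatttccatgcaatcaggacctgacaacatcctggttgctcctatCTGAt
Snord60: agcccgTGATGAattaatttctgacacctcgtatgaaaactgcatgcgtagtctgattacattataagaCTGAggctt
Snord33: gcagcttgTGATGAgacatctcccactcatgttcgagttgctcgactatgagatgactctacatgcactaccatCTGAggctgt
Mir677: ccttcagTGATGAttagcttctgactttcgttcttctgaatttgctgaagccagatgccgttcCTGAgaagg

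U3 and U8, which act in ribosomal RNA cleavage, were lower with WT. Rnu3a stood at 1106, 1574 and 1879 CPM in WT mock and 5501, 11508 and 11810.4 CPM in RM mock, so that every WT library lay below every RM library. The fold was 6.32 in favour of RM mock (log2 fold change -2.66 ± 0.41 (SE), adjusted p = 0.00119). A fold of like size was seen for 4 further 214-base snoRNA features on chromosome 11 (mm9), whose counts differ from one another by no more than 3% or 3 counts in each of the 24 libraries of datasets A and B. These IDs have no entry in GENCODE M21, and whether they count the same reads was not tested. The first of them, ENSMUSG00000070243 at chr11:87262129-87262342, had 1651, 2723 and 3616 CPM in WT mock and 9705, 19544 and 20526 CPM in RM mock (log2 fold change -2.64 ± 0.44 (SE), adjusted p = 0.00196). Together the 4 took 0.720%, 1.16% and 1.61% of all counts in WT mock and 4.40%, 8.09% and 8.34% in RM mock. U8 followed the same order. Snord118 was at 182, 224 and 229 CPM in WT mock and 879, 1072 and 1321 CPM in RM mock, a difference of 5.15-fold (log2 fold change -2.36 ± 0.24 (SE), adjusted p = 2.78e-05). Rnu73b, another small nucleolar RNA, was at 8.81, 7.76 and 9.03 CPM in WT mock and 25.5, 24.3 and 24.3 CPM in RM mock (log2 fold change -1.53 ± 0.15 (SE), adjusted p = 2.78e-05). All 3 of these named RNAs kept the call in each of the 16 other fits, with adjusted p of at most 0.0205 for Rnu3a.

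H/ACA snoRNAs were lower with WT as a class. Of 38 in the files, 37 passed the filter, 28 of them were called lower and none higher, and all 37 had a negative log2 fold change (median -1.34, against 0.02 over all features tested). The libraries of the groups did not overlap for 34 of the 37 (91.9%), all lower with WT, against 18.6% of all features. Snora75, hosted by the nucleolin gene Ncl, was at 40.9, 48.4 and 46.5 CPM in WT mock and 149.5, 247 and 280.3 CPM in RM mock (log2 fold change -2.31 ± 0.36 (SE), adjusted p = 0.00441). The same order held for Snora34 at 31.4, 39.4 and 42.5 CPM in WT mock and 110.1, 114 and 121 CPM in RM mock and for Snora64, within Rps2, at 37.5, 45.1 and 59.7 CPM in WT mock and 147, 160.0 and 176 CPM in RM mock. Snora23 within Ipo7 was the H/ACA snoRNA with the smallest p, at 8.13, 11 and 11 CPM in WT mock and 28, 31.5 and 32.2 CPM in RM mock (log2 fold change -1.61 ± 0.16 (SE), adjusted p = 2.78e-05). Among these 4 RNAs the highest WT library stayed below the lowest RM library by a wide margin. The log2 fold changes of the 28 that were called reached from -2.31 for Snora75 to -0.88 for Snora73b. Snora24, Snora74a and Snora17 also fell by more than 2 on the log2 scale (-2.19 ± 0.31, -2.16 ± 0.33 and -2.09 ± 0.41, SE). The call on Snora17 was lost in 1 of 16 other fits, with adjusted p = 0.0533.

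The 9 H/ACA members that were not called included 3 whose WT libraries disagreed with each other. Snora73a was at 221, 46.1 and 64.7 CPM in WT mock and 125, 110.2 and 102 CPM in RM mock, Snora28 at 96.1, 27.1 and 24.7 CPM and 59.5, 56.1 and 44 CPM, and Snora68 at 62.5, 15.7 and 22.1 CPM and 49.7, 54.3 and 45.5 CPM. In each of them WT mock replicate 1 was the highest of the 6 libraries while replicates 2 and 3 were the lowest. Across the whole class 3 of 37 were highest in that library. The summed share of counts taken by H/ACA snoRNAs was 0.109%, 0.100% and 0.122% in WT mock and 0.284%, 0.292% and 0.274% in RM mock. Counting error on these shares was small: the 95% Wilson interval of WT mock replicate 1 was 0.107% to 0.112%, which covers counting error only. RM mock held 2.56 times the share of WT mock, and an exact two-sided permutation test gave p = 0.1, the smallest that 3 libraries against 3 allow (0.156 adjusted over 14 RNA classes).

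C/D snoRNAs were also lower with WT, and here the outcome depended on 1 library. Of 72 in the files, 70 were tested, 24 were called lower and none higher (median log2 fold change -0.94). The groups did not overlap for 34 (48.6%), all lower with WT, against 18.6% of all features. Without WT mock replicate 1, 49 of the 70 were called lower (6.69% of all features were), all 70 were negative and the median was -1.51. In that library the class took 2.18% of counts, against 0.289% and 0.357% in the other two WT libraries and 0.880% to 1.28% in RM mock. Snord60 was at 96.7, 70.9 and 82.6 CPM in WT mock and 259.6, 323 and 254 CPM in RM mock (log2 fold change -1.74 ± 0.19 (SE), adjusted p = 7.3e-05), and Snord45b at 21.6, 32.1 and 34.3 CPM in WT mock and 95.6, 85 and 88.2 CPM in RM mock (log2 fold change -1.61 ± 0.16 (SE), adjusted p = 2.78e-05). Snord11, within Nop58, was at 7.58, 11.3 and 13.5 CPM in WT mock and 31.7, 27.3 and 28.9 CPM in RM mock (log2 fold change -1.45 ± 0.17 (SE), adjusted p = 0.000151). These 3 did not overlap between groups and kept the call in all 16 other fits. At the other end, abundant members were led by WT mock replicate 1: Snord83b, named after its values were seen, was at 3189, 241 and 317 CPM in WT mock and 1107, 1331 and 903 CPM in RM mock, with adjusted p = 0.926.

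The 4 snoRNAs of the Rpl13a introns (U32a, U33, U34 and U35a), a cluster known from work on lipotoxic stress, held 1 call. Snord33 was at 18.6, 14 and 17.1 CPM in WT mock and 49.9, 60.6 and 61.1 CPM in RM mock (log2 fold change -1.78 ± 0.22 (SE), adjusted p = 0.000306), a fall with WT. Snord34 (27, 9.44 and 13.4 against 31.1, 32.7 and 32.5 CPM, adjusted p = 0.123) and Snord35a (29.5, 10.7 and 15.9 against 45.6, 43.2 and 30.7 CPM, adjusted p = 0.0977) were not called. Snord32a ranged from 39.1 to 473.8 CPM within WT mock, with replicate 1 at the top, and from 122 to 185 CPM in RM mock. With all libraries the difference came to 0.28 ± 0.88 on the log2 scale (SE, adjusted p = 0.869), and without WT mock replicate 1 it was -1.85 (adjusted p = 0.0276).

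Small Cajal body RNAs, which guide modification of spliceosomal RNAs, held 4 members called lower out of 9, with none higher and a median of -0.94; without WT mock replicate 2, RM mock replicate 2 or RM mock replicate 3 the number was 2. Scarna6 was at 4.68, 6.55 and 7.19 CPM in WT mock and 16.4, 17 and 14.3 CPM in RM mock (log2 fold change -1.39 ± 0.22 (SE), adjusted p = 0.00113) and Scarna10 at 17.4, 21.2 and 21.9 CPM in WT mock and 53.5, 46.2 and 35.8 CPM in RM mock (log2 fold change -1.18 ± 0.23 (SE), adjusted p = 0.00567). Scarna9 (adjusted p = 0.0321) and Scarna17 (adjusted p = 0.0347) lost the call in several other fits, with adjusted p of up to 0.131 and 0.104. Scarna13, at 21.5, 9.44 and 13.2 CPM in WT mock and 16, 13.5 and 17.4 CPM in RM mock, and Scarna3b, at 5.92, 11 and 6.35 CPM in WT mock and 6.94, 4.5 and 6.91 CPM in RM mock, overlapped between the groups.

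Features that the files class as snoRNA but that carry no Snora or Snord symbol showed the same pattern. Of 243 such features tested, 116 were lower and none higher (median -1.20). The lowest log2 fold change of all features tested, that of Gm24177, was found here. Gm26175, within Tmf1, was at 14.2, 14.8 and 13.7 CPM in WT mock and 61.4, 138 and 159 CPM in RM mock (log2 fold change -3.07 ± 0.50 (SE), adjusted p = 0.00633) and Gm22581, within Polr3c, at 0.964, 2.13 and 3.68 CPM in WT mock and 11.5, 22.9 and 21.7 CPM in RM mock (log2 fold change -3.06 ± 0.45 (SE), adjusted p = 0.00233). Gm24177 (-4.56 ± 1.18) and Gm23527 (-3.34 ± 0.77) rested on few counts (0.138, 0.152 and 0.334 and 0.138, 0.913 and 1 CPM in WT mock) and lost the call in some other fits, with adjusted p of up to 0.113 and 0.0655. Over all 350 tested features of the snoRNA class, 168 were lower and none higher, with a median of -1.15, and the number lay between 125 and 211 when 1 mock library was left out. Without the near-identical features of chromosome 11 and Rnu3a, the class took 4.603%, 0.902% and 1.12% of counts in WT mock and 3.29%, 3.83% and 2.77% in RM mock, and with them 5.44%, 2.23% and 2.94% against 8.31%, 13.1% and 12.3%.

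The box sequences divide this class without using symbols. A GENCODE M21 transcript was found for 311 of the 350, and each was searched on its own strand only. Of all 1558 GENCODE snoRNA and small Cajal body transcripts, 18.4% held only ACA 3 bases before the end. A further 23.2% held only TGATGA followed by CTGA, and 0.963% held both patterns. Of the tested features 111 fell in the first group, of which 67 were called lower (median -1.32), and 119 in the second, of which 40 were called lower (median -0.94). Both patterns were held by 5, of which 1 was called lower (median -0.86). A further 76 held neither pattern and 36 of them were called lower (median -1.23). No feature of these groups was called higher.

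Most genes around these snoRNAs were not called. For 41 named snoRNAs that were lower and had a tested gene around them on the same strand, the median log2 fold change was -1.43. These snoRNAs were taken because they were called lower, so their median was negative by choice. For the 38 genes around them the median was 0.00. Of those 38 genes 4 were lower and 1 was higher, and over all features tested 14.1% were called. The mRNAs of the snoRNP proteins, such as Dkc1, Nop10 and Fbl, held no call among 17 tested (median 0.06).

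**Figure D1:**
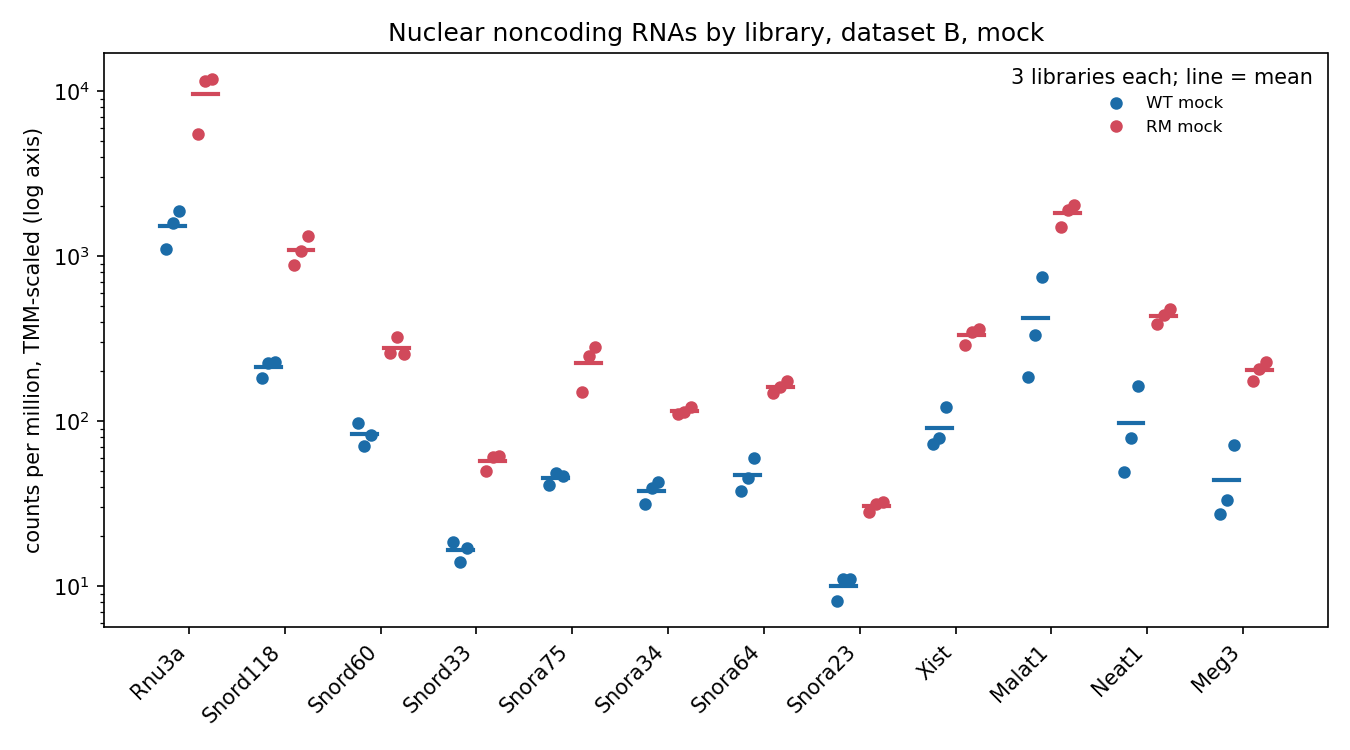
Level of 12 nuclear noncoding RNAs in each library, in CPM on a log axis, with 3 points and their mean for WT mock and for RM mock. For every RNA shown, all WT mock points lie below all RM mock points, from Rnu3a at the left to Meg3 at the right. All 12 shown were called lower, so this separation follows in part from their choice. Other nuclear RNAs, such as Rn7sk and Snora73a, overlapped between the groups.

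In a list of 5 mostly nuclear long noncoding RNAs, 4 were called lower with WT. All 5 had a negative log2 fold change (median -2.11). The groups did not overlap for any of the 5, against 18.6% of all features lower without overlap. Xist, which coats the inactive X chromosome, was at 73, 78.9 and 122 CPM in WT mock and 289, 347 and 359 CPM in RM mock (log2 fold change -1.86 ± 0.21 (SE), adjusted p = 0.000163). Malat1, an RNA of nuclear speckles, was at 185, 334 and 745 CPM in WT mock and 1500.3, 1914 and 2044 CPM in RM mock (log2 fold change -2.11 ± 0.44 (SE), adjusted p = 0.0107), and Neat1, the scaffold of paraspeckles, at 48.9, 79.3 and 163 CPM in WT mock and 385, 439.9 and 476 CPM in RM mock (log2 fold change -2.16 ± 0.42 (SE), adjusted p = 0.01). Meg3, from the imprinted Dlk1-Dio3 region, was at 27.3, 33 and 71.9 CPM in WT mock and 175, 206 and 227 CPM in RM mock (log2 fold change -2.20 ± 0.41 (SE), adjusted p = 0.00976). The WT libraries differed by several fold among themselves for Malat1, Neat1 and Meg3, with replicate 3 the highest, and still did not reach the RM libraries. H19, the other RNA of the list, was lower without a call (-0.86 ± 0.38, adjusted p = 0.142). It is found in the cytoplasm too and is named after its values were seen. In the fit to the 6 mock libraries alone, 2 of the 5 were called.

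Spliceosomal and other small RNAs gave a mixed result. Of 238 tested features that the files class as snRNA, 75 were lower and none higher (median -1.57), but the number varied with the libraries. It was 25 without WT mock replicate 1, 28 without WT mock replicate 2, 31 without RM mock replicate 2 and 18 without RM mock replicate 3, and 120 with DESeq2 (7.93% of all features). Rnu2-10, a U2 gene, was at 81, 224 and 248 CPM in WT mock and 499.7, 571 and 707 CPM in RM mock without passing the test (adjusted p = 0.0525), and Rnu12 at 315, 165 and 142 CPM in WT mock and 378, 511 and 1017 CPM in RM mock (adjusted p = 0.0813). The groups were apart for both in every library. The 7SK RNA Rn7sk, which holds the elongation factor P-TEFb inactive, was at 4208, 1073 and 959 CPM in WT mock and 2195, 3204 and 5278 CPM in RM mock, and none of 10 structured RNAs of that list, which includes the RNA of RNase P, telomerase RNA and the Y RNAs, was called.

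MicroRNA features were high in WT mock replicate 1. Of 173 tested, 149 had their highest level in that library, and the class took 4.14% of counts there against 0.684% and 0.380% in the other WT libraries and 0.548% to 0.925% in RM mock. The median log2 fold change was 1.65 with all libraries and -0.04 without that one. Mir22, named after its values were seen, was at 4553, 678 and 309 CPM in WT mock and 399, 367 and 329 CPM in RM mock and did not pass the test (adjusted p = 0.141). Of 201 tested features that the files class as miRNA, 6 were called higher and 6 lower. The list of 173 was drawn up by Mir symbol. In it the groups did not overlap for 23 features higher with WT (13.3%) and 10 lower (5.78%), against 18.2% and 18.6% of all features. In the same list 1 microRNA feature was called higher and 8 were called lower, against 6.24% and 7.88% of all features. Without WT mock replicate 3 the number called higher was 32, and with DESeq2 it was 30 (4.97% of all features). Mir677 was at 5.37, 6.39 and 6.52 CPM in WT mock and 17.8, 20.2 and 27.9 CPM in RM mock (log2 fold change -1.83 ± 0.22 (SE), adjusted p = 0.000141), and Mir1949 was also lower (log2 fold change -1.13 ± 0.17 (SE), adjusted p = 0.00077). The files class both of these as snoRNA features, and Mir677 holds a box C and a box D in the sequence printed above. Mir5125, inside Srrm2, was at 0.689, 0.152 and 1 CPM in WT mock and 5.95, 8.73 and 6.39 CPM in RM mock and Mir763, inside Hmga2, at 0.138, 0.457 and 0.836 CPM in WT mock and 2.85, 5.18 and 5.37 CPM in RM mock. Whether reads of these host transcripts were counted there was not tested.

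Few ribosomal, mitochondrial and transfer RNA features were called. Features classed as ribosomal RNA took 16.0%, 26.5% and 22.4% of counts in WT mock and 14.6%, 15.3% and 13.9% in RM mock, with no overlap. Of 112 tested features of this class, 107 had a positive log2 fold change. The groups did not overlap for 46 higher with WT (41.1%, against 18.2% of all features) and 1 lower. With 1 feature kept of each near-identical set, 74 of 79 were positive. The test over single features called 5 of 112 higher and none lower. It called 12 higher without WT mock replicate 1 and 0 or 1 without any of the other 5 libraries. With the 6 mock libraries alone, 11 of 105 were called higher, against 718 of 12150 features. Among the 5 called, the 5S copies n-R5s158 (12.9, 21.3 and 20.2 CPM in WT mock and 6.81, 6.82 and 5.37 CPM in RM mock, adjusted p = 0.0118) and n-R5s175 (35.1, 44.3 and 37.5 CPM in WT mock and 16.1, 11.2 and 10.5 CPM in RM mock, adjusted p = 0.0424) have close copies in the genome. How reads were divided among such copies is not known, so both values are uncertain. Mitochondrially encoded RNA took 1.50%, 0.882% and 0.948% in WT mock and 1.33%, 2.41% and 3.36% in RM mock, so that the RM mean was 2.13 times the WT mean, with overlap of the groups and an exact permutation p of 0.2 (0.28 adjusted over 14 classes). The median over its 35 tested features was 0.59, opposite in sign to the share, and -0.18 without WT mock replicate 1. Only the transfer RNAs mt-Tq (41.2, 27.7 and 23.9 CPM in WT mock and 7.06, 13.8 and 8.7 CPM in RM mock, adjusted p = 0.0262) and mt-Tt (17.9, 6.39 and 6.02 CPM in WT mock and 1.49, 3 and 2.3 CPM in RM mock, adjusted p = 0.0413) were called, both higher with WT. No mitochondrial RNA was called higher without WT mock replicate 1 or 2, or without RM mock replicate 1 or 3, and 5 were without WT mock replicate 3. 1 was called lower without WT mock replicate 1, without RM mock replicate 1, with DESeq2 and with the 6 mock libraries alone, and 2 with scaling by total counts. Of 233 nuclear transfer RNA features 3 were higher and none lower, and without WT mock replicate 2, RM mock replicate 1 or RM mock replicate 3 none was higher. DESeq2 called 20 of them higher and 4 lower, against 4.97% and 7.93% of all features. A replicate block in the fit gave 2 higher and 7 lower, against 881 and 1151 of 12466 features. Lars2, the mitochondrial leucyl-tRNA synthetase gene, took 4.15%, 3.90% and 4.13% of all counts in WT mock and 3.11%, 2.16% and 2.09% in RM mock, and was not called (log2 fold change 0.70 ± 0.31 (SE), adjusted p = 0.148).

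**Figure D2:**
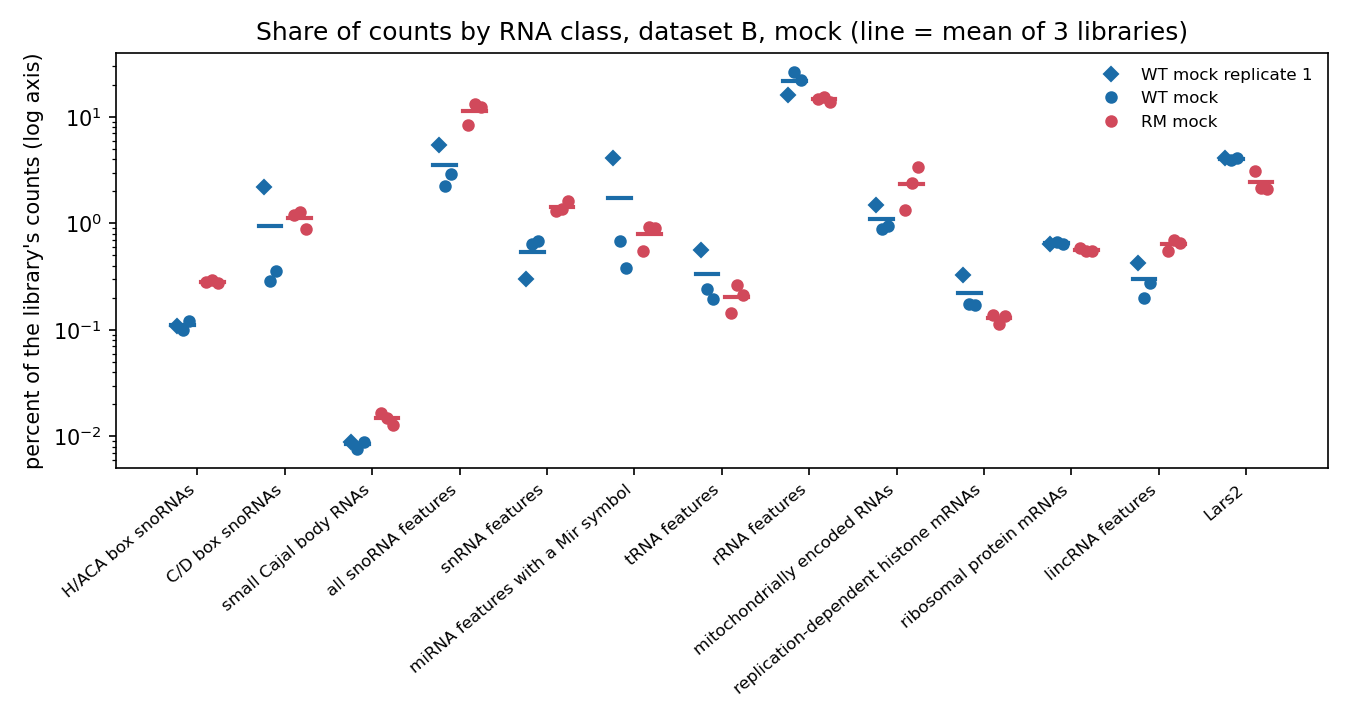
Percent of each library's counts taken by 13 RNA classes, on a log axis, with WT mock replicate 1 drawn as a diamond and the mean of each group as a line. The groups are apart for H/ACA snoRNAs, while for C/D snoRNAs and microRNA features replicate 1 lies above every other library.

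Histone messages were higher with WT in 15 of 62 tested and lower in none. These short, mostly unspliced messages of dividing cells end in a stem-loop. Of 66 in the files, the 62 that passed the filter all had a positive log2 fold change (median 0.69). The groups did not overlap for 43 (69.4%), all higher with WT, against 18.2% of all features. Hist1h1c was at 32.4, 39 and 47.5 CPM in WT mock and 24, 17.9 and 22.5 CPM in RM mock (log2 fold change 0.88 ± 0.17 (SE), adjusted p = 0.00392), and Hist1h3b at 44.5, 36.1 and 35.9 CPM in WT mock and 22.9, 19.8 and 21 CPM in RM mock (log2 fold change 0.87 ± 0.17 (SE), adjusted p = 0.00458). Hist1h3f was at 57.2, 37.8 and 31.4 CPM in WT mock and 24.7, 18.6 and 22 CPM in RM mock and Hist1h3c at 46.8, 54.3 and 45.3 CPM in WT mock and 33.2, 27.4 and 27.6 CPM in RM mock, again without overlap. How reads were divided among near-identical histone genes is not known, so the value of a single gene is uncertain. The number called was 5 without RM mock replicate 2 and 5 without RM mock replicate 3, and 27 with scaling by total counts. Slbp, which encodes the protein that binds the stem-loop, was higher too (48.2 ± 4.76 CPM in WT mock against 33.9 ± 3.87 in RM mock, SD, n = 3, adjusted p = 0.02).

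Of 79 ribosomal protein messages, 9 were higher (11.4%, against 6.24% of all features) and none lower (median 0.29). Rps4x was at 90.5, 106 and 93 CPM in WT mock and 70.9, 59.5 and 53.5 CPM in RM mock (log2 fold change 0.65 ± 0.13 (SE), adjusted p = 0.00449) and Rplp0 at 116, 138 and 137 CPM in WT mock and 94.6, 78.7 and 75.4 CPM in RM mock (log2 fold change 0.65 ± 0.17 (SE), adjusted p = 0.0194). The number called was 16 without WT mock replicate 1, 4 without WT mock replicate 2, 1 without RM mock replicate 2 and 2 without RM mock replicate 3.

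Cholesterol synthesis genes were higher with WT in 11 of 22 tested, and none was lower (median 0.41). The called genes included Idi1, Fdft1, Fdps, Cyp51, Nsdhl, Msmo1, Insig1, Mvd, Ebp and Hsd17b7. Msmo1, a sterol oxidase, was at 116, 77.8 and 63.7 CPM in WT mock and 54.3, 51.8 and 46.8 CPM in RM mock (log2 fold change 0.75 ± 0.18 (SE), adjusted p = 0.0115), and Idi1, an isomerase early in the pathway, at 74.4, 76.3 and 59.9 CPM in WT mock and 48.2, 44.6 and 42.5 CPM in RM mock (log2 fold change 0.64 ± 0.15 (SE), adjusted p = 0.0109). The number called was 7 without WT mock replicate 1, 6 without WT mock replicate 2, 7 without RM mock replicate 1, 1 without RM mock replicate 2 and 1 without RM mock replicate 3, and 2 with scaling by total counts. Scd1, the desaturase that turns palmitate- and stearate-derived chains into monounsaturated ones, was at 249.6, 256 and 259.7 CPM in WT mock and 164, 158 and 149 CPM in RM mock (log2 fold change 0.70 ± 0.11 (SE), adjusted p = 0.000782), a narrow spread in both groups. Scd2 followed at 1012, 1106 and 1067 CPM in WT mock and 869.6, 709.9 and 652 CPM in RM mock (log2 fold change 0.51 ± 0.16 (SE), adjusted p = 0.042). Of 18 genes of the fatty acid list 2 were higher and 1, Ppard, was lower (7.67 ± 0.933 CPM in WT mock against 11.9 ± 1.6 in RM mock, SD, n = 3). Calls made up 16.7% of the fatty acid list, against 14.1% of all features. Ppard was not called without WT mock replicate 1 or 2, or without RM mock replicate 1 or 3.

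Of the messages with large differences, Anxa8, an annexin, was at 45.9, 53.4 and 47.3 CPM in WT mock and 7.8, 10.8 and 8.18 CPM in RM mock, a fold of 5.43 (log2 fold change 2.44 ± 0.16 (SE), adjusted p = 2.89e-07). Lrrn4cl (9.23, 10.2 and 11 against 1.49, 2.05 and 2.3 CPM), the glycosylphosphatidylinositol-anchored surface protein gene Ly6a (16.3, 16.1 and 12 against 4.21, 4.09 and 3.07 CPM) and Mgst3, a microsomal glutathione transferase gene (6.47, 12.3 and 9.2 against 2.85, 2.18 and 1.53 CPM), were higher by 1.93 to 2.41 on the log2 scale. Psca, Stmn2, Crip1, Btc and Has1 were also among the 15 largest rises, with WT means between 2.84 and 6.86 CPM. Each of these 9 genes kept its call in every other fit that gave it a value.

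**Figure D3:**
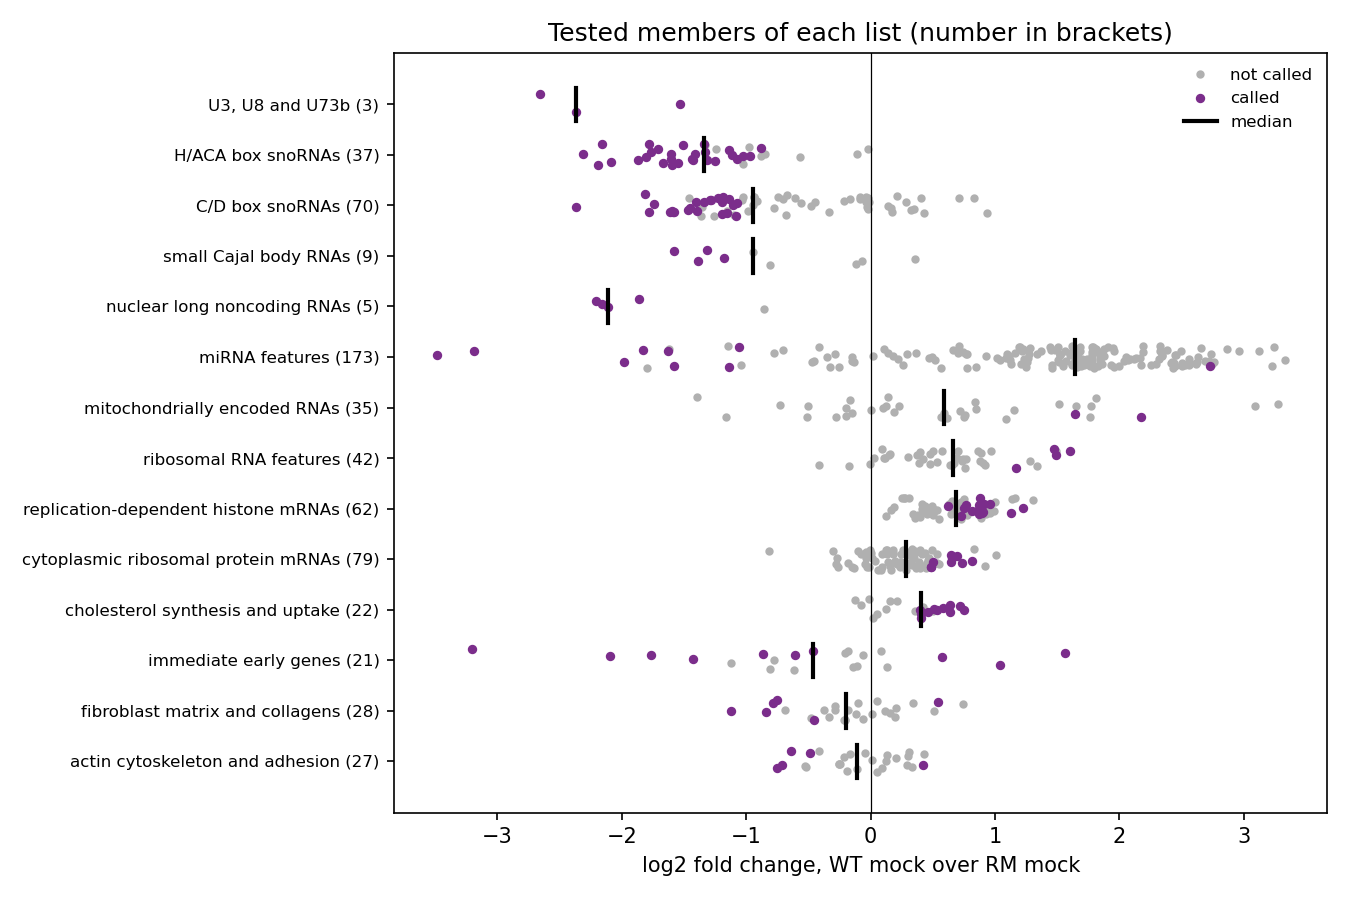
Log2 fold change of WT mock over RM mock for each tested member of 14 gene and RNA lists, with called members in purple and the median as a bar. The medians of the snoRNA, small Cajal body and nuclear noncoding lists lie left of 0 (-1.34 for H/ACA) and that of histone messages right of 0 (0.69), while microRNA features have a median of 1.65 with few calls.

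Genes that respond at once to growth factors split in both directions. Of 21 tested, 7 were lower and 3 were higher with WT. Without RM mock replicate 3, 4 were lower and 2 higher, and with a mean of 50 counts as filter 3 were lower and 3 higher. The lower ones were Fos, Fosl2, Junb, Egr1, Egr2, Egr3 and Ier2, and the higher ones were the Krüppel-like factors Klf2, Klf4 and Klf6. Fos was at 0, 0.304 and 0.334 CPM in WT mock and 1.11, 2.18 and 3.32 CPM in RM mock (log2 fold change -3.20 ± 0.71 (SE), adjusted p = 0.00745), and Egr3 at 1.52, 1.67 and 1.67 CPM in WT mock and 3.34, 4.77 and 5.37 CPM in RM mock (log2 fold change -1.43 ± 0.31 (SE), adjusted p = 0.00616). Klf2 was at 31.4, 29.4 and 31.3 CPM in WT mock and 9.79, 12.3 and 8.7 CPM in RM mock (log2 fold change 1.56 ± 0.14 (SE), adjusted p = 2.16e-05) and Klf4 at 35.5, 23.7 and 29.1 CPM in WT mock and 15, 12.5 and 15.6 CPM in RM mock (log2 fold change 1.04 ± 0.19 (SE), adjusted p = 0.00257). The levels of Fos in WT mock rest on a handful of counts, whereas the Klf2 values were tight in both groups.

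Matrix and cytoskeleton messages were lower with WT in several large genes. Of 28 matrix genes 5 were lower (Col12a1, Fn1, Col5a1, Tnc and Col4a2) and 1, the protease inhibitor gene Timp2, was higher (median of the list -0.19). Fn1, fibronectin, was at 4656, 3822 and 3981 CPM in WT mock and 7304, 7298 and 7736 CPM in RM mock (log2 fold change -0.84 ± 0.23 (SE), adjusted p = 0.0213) and Col12a1, a fibril-associated collagen, at 239.9, 209.9 and 189 CPM in WT mock and 437, 473 and 481 CPM in RM mock (log2 fold change -1.12 ± 0.15 (SE), adjusted p = 0.000263). Tenascin C (Tnc) was at 279.9, 282 and 297 CPM in WT mock and 490.3, 482 and 473 CPM in RM mock (log2 fold change -0.75 ± 0.16 (SE), adjusted p = 0.00564). Among 27 actin and adhesion genes 4 were lower, among them Flnc, Myh10 and Acta2, and Tagln2 was higher. Calls made up 21.4% of the matrix list and 18.5% of the actin list, against 14.1% of all features. Myh10, a non-muscle myosin, was at 1148, 1202 and 1290.4 CPM in WT mock and 1841, 1879 and 1967 CPM in RM mock (log2 fold change -0.64 ± 0.17 (SE), adjusted p = 0.0186). Scaling by total counts left 1 lower call in the matrix list and none in the actin list, and leaving out RM mock replicate 3 left 3 and 1. Of 15 targets of YAP and TGF-beta signalling 3 were lower (20%, against 7.88% of all features) and none higher. Thbs1, thrombospondin 1, was at 338, 324 and 369 CPM in WT mock and 609.6, 623 and 629 CPM in RM mock (log2 fold change -0.85 ± 0.14 (SE), adjusted p = 0.00158) and Ccn1 at 17.5, 17.4 and 16.1 CPM in WT mock and 29.1, 32.2 and 36.1 CPM in RM mock (log2 fold change -0.93 ± 0.20 (SE), adjusted p = 0.00641).

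Markers of the fibroblast itself moved in both directions. Thy1 was higher with WT at 87.2, 78.2 and 80.6 CPM in WT mock and 46.3, 41.2 and 34.5 CPM in RM mock (log2 fold change 1.004 ± 0.13 (SE), adjusted p = 0.000273) and S100a4 too, at 214, 441 and 344 CPM in WT mock and 189, 161 and 138 CPM in RM mock (log2 fold change 1.03 ± 0.22 (SE), adjusted p = 0.00834), while Pdgfrb was lower at 110.5, 99.7 and 110.0 CPM in WT mock and 169.7, 160.3 and 163 CPM in RM mock (log2 fold change -0.62 ± 0.10 (SE), adjusted p = 0.00153). Scaling by total counts left 2 higher calls and no lower one among the 12 markers. Of the proliferation genes, 3 of 25 replication genes were higher (Slbp, Ccne2 and Rfc4), and of 20 mitosis genes Ccnb2, Ccna2 and Prc1 were higher and Mki67 was lower. Calls made up 12% of the replication list and 20% of the mitosis list, against 14.1% of all features. Scaling by total counts left no call in the mitosis list and 1 in the replication list, and without WT mock replicate 2 no replication gene was called. Mki67, a long message, was at 647, 659 and 664 CPM in WT mock and 932, 1045 and 1273 CPM in RM mock (log2 fold change -0.72 ± 0.18 (SE), adjusted p = 0.0159). Ccnb2, a cyclin, was at 154, 124 and 120.0 CPM in WT mock and 85.4, 80.9 and 79.8 CPM in RM mock (log2 fold change 0.69 ± 0.15 (SE), adjusted p = 0.00723). Tubb3, counted among the neural markers, was higher with WT (8.44 ± 1.73 CPM in WT mock against 3.66 ± 0.745 in RM mock, SD, n = 3, adjusted p = 0.00496).

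PKR's own message did not pass the test. Eif2ak2 was at 8.81, 7.61 and 7.52 CPM in WT mock and 10.5, 10.2 and 10.2 CPM in RM mock (log2 fold change -0.37 ± 0.22 (SE), adjusted p = 0.287), without overlap of the groups, and reads from the added construct and from the cell's own locus cannot be told apart in these counts. The mutation lies within the transcript and is not visible in a gene count, so the labels of the libraries have no check in Eif2ak2. Of 23 genes for PKR and for partners that bind or process double-stranded RNA, 2 were higher and 2 lower. Calls made up 17.4% of this list, near the 14.1% of all features. Eif2s1, which encodes the substrate eIF2 alpha, was at 62, 55 and 48.2 CPM in WT mock and 37.2, 35.1 and 37.3 CPM in RM mock (log2 fold change 0.59 ± 0.15 (SE), adjusted p = 0.0138). Dnajc3, whose product P58IPK inhibits PKR, was at 37.5, 28 and 24.9 CPM in WT mock and 22.4, 22.5 and 13.6 CPM in RM mock (log2 fold change 0.61 ± 0.19 (SE), adjusted p = 0.0431). Dicer1 and Dgcr8, of the microRNA processing machinery, were lower, at 73.9 ± 5.37 CPM in WT mock against 96.5 ± 11.9 in RM mock and 32.8 ± 5.14 CPM in WT mock against 44.1 ± 5.73 in RM mock (SD, n = 3, adjusted p = 0.0423 and 0.0443). Each of these 4 lost its call in some of the other fits, with adjusted p of up to 0.0924, 0.201, 0.342 and 0.241 in the same order.

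Downstream lists were near balance. Of 27 interferon-stimulated genes 4 were higher (Ifitm3, Xaf1, B2m and Ifit2) and 2 lower (Parp14 and Psmb8), with a median of 0.01. The share called in this list was 22.2%, against 14.1% of all features. Without WT mock replicate 2, 2 were higher and 1 lower, and 1 was lower without any other of the 6 libraries. Ifitm3 was at 71.2, 58 and 53.2 CPM in WT mock and 38.2, 38.3 and 35.8 CPM in RM mock (log2 fold change 0.70 ± 0.13 (SE), adjusted p = 0.00285) and Parp14 at 29.2, 32.9 and 33.8 CPM in WT mock and 48.9, 58.5 and 61.1 CPM in RM mock (log2 fold change -0.81 ± 0.15 (SE), adjusted p = 0.00279). Of 27 genes of the integrated and endoplasmic reticulum stress responses only Xbp1 was called, as higher (14.7 ± 0.812 CPM in WT mock against 9.09 ± 1.01 in RM mock, SD, n = 3, adjusted p = 0.0194, 0.091 at most in other fits). Atf4, whose translation rises when eIF2 alpha is phosphorylated, was at 56.2, 66.7 and 65.7 CPM in WT mock and 83, 73.4 and 85.4 CPM in RM mock and was not called (adjusted p = 0.0628). Heat shock genes held 1 higher call in 13, Hspe1, and targets of p53 held 1 in 11, Ccng1. Calls made up 3.70%, 7.69% and 9.09% of the stress response, heat shock and p53 lists, against 14.1% of all features. Neither the heat shock list nor the p53 list held a call without WT mock replicate 2 or any 1 of the RM mock libraries.

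**Figure D4:**
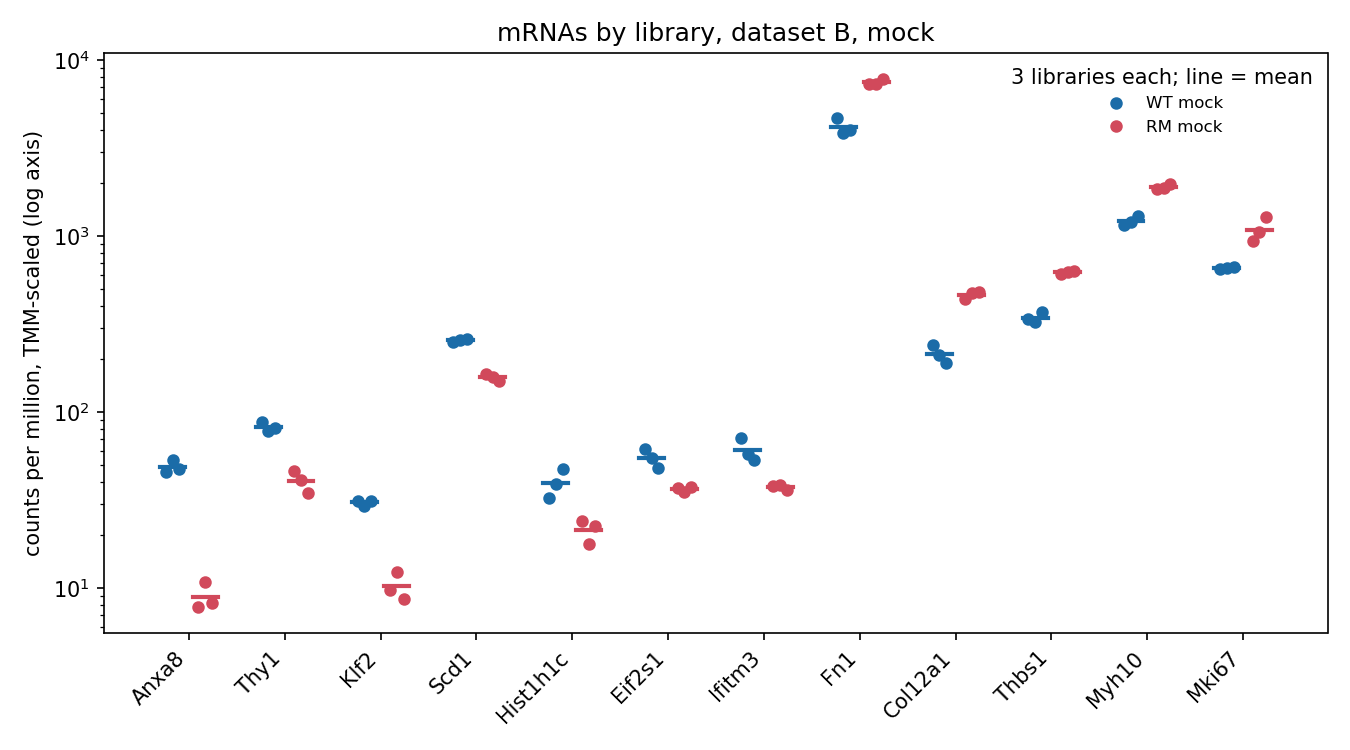
Level of 12 messages in each library, in CPM on a log axis, with 3 points and their mean for WT mock and for RM mock. Anxa8 to Ifitm3 lie higher in WT mock, and Fn1 to Mki67 lie higher in RM mock, with no overlap in any of the 12. All 12 shown were called, so the lack of overlap follows in part from their choice.

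The difference moved with transcript length. Among 10753 tested protein-coding genes, the shortest of 4 groups of like size (204 to 2161 bases) had 295 genes higher and 37 lower with a median of 0.21, and the longest (4991 bases and more) had 100 higher and 413 lower with a median of -0.13. The groups between were at 0.07 and 0.00. Leaving out any 1 of the 6 libraries kept the median of the shortest group between 0.17 and 0.23 and that of the longest between -0.17 and -0.13. Histone and ribosomal protein messages are short, and those of Fn1, Col12a1, Myh10 and Mki67 are long; the part of length in their differences was not tested. The grouping by length covered protein-coding genes only, so the snoRNAs were not part of it.

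Protein-coding genes also differed by chromosome. On chromosome 19, 71 of 389 tested genes (18.3%) were higher with WT and 9 lower, against 6.83% higher over all chromosomes, and the median was 0.20. On chromosome 17, 8 of 515 were higher and 71 lower (median -0.15). On chromosome 18, 8 of 277 were higher and 47 lower (median -0.15). The share lower over all chromosomes was 6.32%. Other chromosomes also differed in mock of dataset B. On chromosomes 14, 3 and X, 51 of 360, 56 of 538 and 41 of 362 genes were higher. The medians of chromosomes 14, 3 and X were 0.14, 0.14 and 0.13, and in mock of dataset A they were -0.01, -0.02 and -0.06. The median over all protein-coding genes was 0.03. Without any 1 of the 6 libraries the median stayed between 0.16 and 0.19 for chromosome 19, between -0.21 and -0.12 for chromosome 17 and between -0.20 and -0.14 for chromosome 18. In dataset B each 20-Mb window of chromosomes 19, 17 and 18 had the sign of its chromosome, with medians from 0.14 to 0.20 on chromosome 19. In the palmitate-treated libraries of dataset B, which share no library with mock, the medians of chromosomes 19, 17 and 18 were 0.25, -0.10 and -0.14, and in the mock libraries of dataset A they were 0.12, -0.11 and -0.24. Scd1, Scd2, Lrrn4cl, Malat1 and Neat1 lie on chromosome 19, and Eif2ak2, Has1 and Ppard on chromosome 17. The part of chromosome in their differences was not tested.

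**Figure D5:**
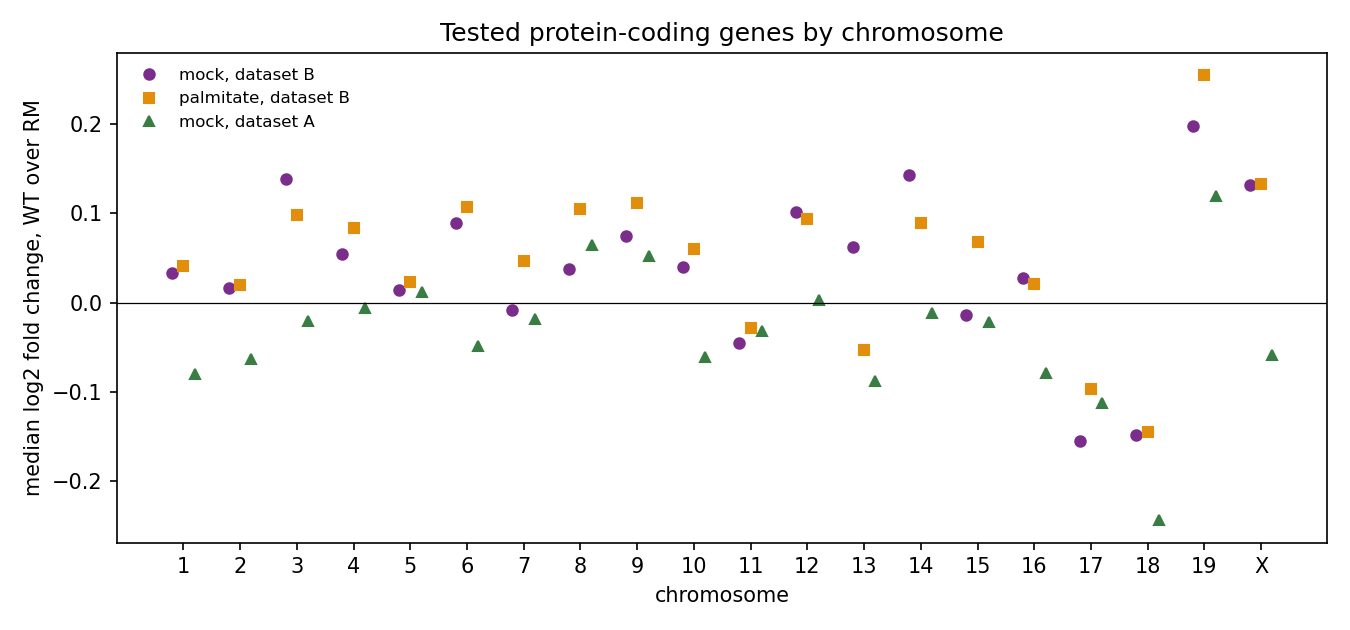
Median log2 fold change of WT over RM for tested protein-coding genes of each chromosome, in mock libraries of dataset B, palmitate libraries of dataset B and mock libraries of dataset A. Chromosome 19 is above 0 and chromosomes 17 and 18 are below 0 in all 3 comparisons.

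The same contrast under palmitate asks whether the difference depends on the untreated state. In the treated libraries 974 of 12466 features differed (7.81%), 451 higher (3.62%) and 523 lower (4.2%). Of the 1760 features called in mock, 1488 (84.5%) had the same sign under palmitate. Of the 1760, 362 (20.6%) were called the same way there, which is 37.2% of the 974, and 2 were called the opposite way. Anxa8 (2.77, adjusted p = 1.15e-06), Klf2 (1.30, 0.000778), Thy1 (0.94, 0.00178) and Scd1 (0.80, 0.000824) were higher with WT there as well on the log2 scale. H/ACA snoRNAs were lower in 5 of 37 (median -0.45) and U8 was lower (-1.05, adjusted p = 0.0164), while Rnu3a was not called (-0.53, adjusted p = 0.428). Histone messages had a median of -0.62 with no call. The change of the genotype difference between mock and palmitate was called for 0 features by edgeR's interaction test, with 2011 at an unadjusted p under 0.05, and for 375 (3.01%) by DESeq2, 119 upward (0.955%) and 256 downward (2.05%). DESeq2's calls included 9 H/ACA snoRNAs whose difference was less negative under palmitate, and 25 histone messages and 77 transfer RNA features whose difference was lower there. Without RM palmitate replicate 1 edgeR called 903, and without WT mock replicate 3 it called 110. Without RM palmitate replicates 2 and 3, which leaves 1 library in that group, 16 features were called under palmitate. With scaling by total counts the 974 calls under palmitate became 2109, 1735 of them higher, and the median of all features moved by 0.36.

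Dataset A repeated the mock comparison with 3 other libraries of each genotype. There 760 of 12683 features differed (5.99%), 492 higher (3.88%) and 268 lower (2.11%). Of the 1760 features called in dataset B, 128 (7.27%) were called the same way in A, which is 16.8% of A's 760, and 12 were called the opposite way. Of the 1758 that were tested in both, 71.8% had the same sign. H/ACA snoRNAs had no call in A, with a median of -0.46, and Rnu3a (-1.33, adjusted p = 0.0936), Snord118 (-0.94, 0.112) and Xist (-0.94, 0.0868) did not pass the test there. Histone messages were higher in 5 of 62 (median 0.56) and mitochondrially encoded RNAs in 19 of 36. Cholesterol genes had a median of -0.26 with 1 lower. A direct test of B against A called 319 features (2.52%), 117 (0.922%) with a higher and 202 (1.59%) with a lower genotype difference in B. Scaling by total counts gave 131, 27 higher and 104 lower, and moved the median by 0.18; in A alone it gave 185 higher and 174 lower. The direct test called between 148 (without RM mock replicate 2 of A) and 461 (without WT mock replicate 3 of B) when 1 library was left out.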

How the data were processed

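Per the labels' protocols, PKR was immunoprecipitated from fibroblast lysate, then RNA was taken up in Trizol and broken into fragments before small RNA library preparation. Per the submitters' processing notes, CASAVA 1.7.0 and 1.8.2 and Novoalign were used with build mm9. The authors deposited tables of whole-number counts per feature, with 30210 features in each, and how reads with several map positions were counted is not given in the sources used here. A deposited length of each feature in bases served for the grouping by length. The tables also held 48 columns of corrected counts and FPKM that were not used, and the single-sample dataset C was not used here.

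Tables were joined on the feature name. GENCODE M21 gave symbols for 25755 of 29777 Ensembl identifiers. Tests used edgeR 4.0.16 (R 4.3.3, limma 3.58.1) with TMM scaling, filterByExpr and robust quasi-likelihood fits over the 4 groups of dataset B (12 libraries), or all 8 groups of datasets A and B (24 libraries). Benjamini-Hochberg adjustment ran over all features tested. DESeq2 1.42.0 was an alternative. Shares of counts were compared with an exact permutation test (scipy 1.17.1). Calls were tested on simulated data. The replicates of each group are biological replicates per the submitters' design. Named features were the 15 highest and 15 lowest called fold changes with a mean of at least 10 counts and no overlap of the groups, up to 4 of the smallest p in each list, and Eif2ak2, Lars2 and the H/ACA, small Cajal body and Rpl13a RNAs; any others were named after their values were seen. The members and lists were chosen with earlier results of these data known.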

Additional observations from a re-analysis of the deposited data

Results flagged for a closer look

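The genotype difference in mock cells was itself different between datasets B and A for 319 features (edgeR, adjusted p under 0.05), and 10 of the named features are among them. The following values are B minus A on the log2 scale with the standard error of the fit. The difference was more positive in B for Crip1 (2.26 ± 0.52, adjusted p = 0.0172), Ly6a (1.50 ± 0.36, adjusted p = 0.0205), Msmo1 (1.39 ± 0.30, adjusted p = 0.0101), Scd1 (1.16 ± 0.21, adjusted p = 0.00215) and Idi1 (1.03 ± 0.28, adjusted p = 0.0478). It was more negative in B for Avil (-2.44 ± 0.63, adjusted p = 0.0321), Gm22581 (-2.26 ± 0.59, adjusted p = 0.0422), Snora41 (-1.54 ± 0.37, adjusted p = 0.0218), Parp14 (-1.19 ± 0.24, adjusted p = 0.00509) and Dlk1 (-0.94 ± 0.26, adjusted p = 0.0448). Snora41, an H/ACA snoRNA within Eef1b2, was at 3.99, 4.11 and 3.18 CPM in WT mock and 10.8, 10.9 and 13 CPM in RM mock in dataset B.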

How the results depend on the processing

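The number of features called between WT mock and RM mock was 1760, 978 with scaling by total counts, and 736 to 1826 when 1 mock library was left out. DESeq2, other size factors, no filter or a mean of 50 counts as filter, the 6 mock libraries alone and the removal of ribosomal RNA, mitochondrial RNA and Lars2 kept it between 1579 and 1817, as did 1 feature kept of each near-identical set, an alternative chosen after seeing the data. Without RM palmitate replicates 2 and 3 it was 2411. For the change of the genotype difference with palmitate, edgeR called 0, DESeq2 375, scaling by total counts 119, no filter 125, and 0 to 903 were called when 1 library was left out. For the difference between datasets, 319 became 131 with scaling by total counts and 148 to 461 when 1 library was left out. In shares of counts, the ratio of WT to RM for C/D snoRNAs was 0.843, and it was 0.289 to 1.14 when 1 library was left out, with values over 1 without WT mock replicate 2 (1.14) and 3 (1.11). For microRNA features it was 2.19, and 0.672 (without WT mock replicate 1) to 3.05 when 1 library was left out. For protein-coding genes it was 1.002, 0.987 to 1.03 when 1 library was left out, and 0.991 without WT mock replicate 1, 0.995 without WT mock replicate 3, 0.987 without RM mock replicate 2 and 0.989 without RM mock replicate 3. Snord32a moved to -1.85 on the log2 scale without WT mock replicate 1. The cause of these changes was not tested. Of 134 called named features, 72 kept the call in each of the 16 alternatives that gave them a value. The deviations of same-numbered WT and RM mock libraries had correlations of -0.15, -0.15 and 0.08, and those of differently numbered ones -0.23 to 0.25. The labels give no pairing, and so few correlations cannot decide whether the numbers pair the libraries. A replicate block in the fit gave 2032 calls between WT mock and RM mock, 46 for the change with palmitate and 472 for the difference between datasets. Features with few counts, such as Fos and Gm24177, are limited by depth.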

Other observations

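Of 13 tested Hox genes 2 were lower with WT, Hoxd3 and Hoxd4, and none was higher (median 0.01, edgeR, 14.1% of all features called). Hoxd4 was at 5.92, 5.48 and 5.52 CPM in WT mock and 12, 11.2 and 15.1 CPM in RM mock (log2 fold change -1.16 ± 0.20 (SE), adjusted p = 0.00193). Snhg11, a noncoding host gene, was at 0.138, 0.152 and 0.167 CPM in WT mock and 0.743, 2.32 and 1.79 CPM in RM mock (log2 fold change -3.19 ± 0.85 (SE), adjusted p = 0.0192), and Gas5, which hosts C/D snoRNAs, at 4738, 676 and 725 CPM in WT mock and 2409, 2909 and 1876 CPM in RM mock (adjusted p = 0.863), with WT mock replicate 1 far above the other 5 libraries. Dlk1, an imprinted growth regulator, was at 8.13, 7.16 and 6.35 CPM in WT mock and 8.92, 6.41 and 4.86 CPM in RM mock (log2 fold change 0.07 ± 0.22 (SE), adjusted p = 0.945) and was not called.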
